A study of Mus musculus with 6 samples.

Results

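The subject of this report is a set of 9 transcription factors that set the identity of dendritic and other myeloid cells: Spi1, Cebpa, Cebpb, Irf8, Batf3, Id2, Zbtb46, Irf4 and Klf4. They were taken by symbol from the platform annotation of the arrays, and each is measured by 1 probe set. All 9 passed the filter on dim signals, so all 9 were among the 13956 genes tested, out of 19938 genes with a probe set of a single symbol. The study compared dendritic cells grown from bone marrow of mice that had earlier received marrow from irradiated or naive donors. The UV-donor group came from female C57BL/6J mice injected with 2000000 bone marrow cells of a B6.SJL-Ptprca mouse whose shaved back had been exposed to up to 8 kJ/m2 of ultraviolet (UV) radiation, at 6 to 10 weeks of age. The naive-donor group came from female C57BL/6J mice given 2000000 cells of a naive mouse of the same congenic strain (its leukocytes bear the CD45.1 antigen). Each group has 3 arrays, and the age of 6 to 10 weeks is given for both groups. In both, marrow was grown for 5 days with 10 ng/ml each of GM-CSF and IL-4, and cells bearing CD11c were enriched on magnetic beads to above 95%. The labels describe enrichment by CD11c and not by CD45.1, and give neither the share of cells derived from the donor nor whether preparations came from separate recipients. The p-values therefore measure the spread between preparations, which may be technical.

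Dendritic cells arise from bone marrow progenitors through a hierarchy of transcription factors. PU.1, the product of Spi1, and the C/EBP proteins open the myeloid programme. Irf8 with Batf3 and Id2 then directs the type 1 conventional lineage (cDC1), which cross-presents antigen, while Irf4 and Klf4 support the type 2 lineage (cDC2) and the monocyte-derived cells that predominate in marrow cultured with GM-CSF and IL-4. In bulk RNA, fewer cells of a type and less transcript per cell cannot be told apart.

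The arrays gave log2 signals made by the authors with RMA, so a difference of 1 is a 2-fold change. Correlations between arrays over all probe sets were 0.995 to 0.997, and UV-donor replicate 1 lay farthest from the naive-donor arrays on the first principal component (14.1, against 4.31 and 3.79 for the other UV-donor arrays and -10.8 to -2.01 for the naive-donor arrays). Of 11 dendritic cell markers, 10 passed the dim filter and the exception was Flt3. Limma called 0 of the 10, 9 had higher UV-donor means, and the median difference was 0.090. The groups did not overlap for 2 of the 10, both higher, beside 12.4% higher and 9.37% lower of all tested genes. These were H2-Aa (0.12) and H2-Ab1 (0.10), chains of MHC class II (limma adjusted p-values 0.341 and 0.398). For H2-Eb1, another such chain, the groups overlapped (difference 0.11, limma adjusted p = 0.475). These chains were named after their values were seen. Itgax, the 1 marker with a lower UV-donor mean, encodes CD11c and read 13.71, 13.75 and 13.73 in the UV-donor group, against 13.78, 13.75 and 13.79 in the naive-donor group. B cell and T and NK cell markers were mostly dim, at 4 of 7 and 5 of 7 with a probe set.

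None of the 9 factors passed the test. A gene was called when its two-sided limma p, adjusted by Benjamini-Hochberg over the whole tested table, was under 0.05. By that rule 0 of 9 were called, against 24 of 13956 genes or 0.172%, all of them higher in the UV-donor group. At an unadjusted p under 0.05 limma likewise gave 0 of 9, against 15.1% of all tested genes (9.6% higher and 5.49% lower). That split was 1340 higher and 766 lower, and with array medians centred it was 2052 higher and 302 lower. The UV-donor and naive-donor arrays overlapped for each of the 9, whereas they did not overlap for 21.8% of all tested genes (12.4% higher and 9.37% lower). The median difference of the factors, UV-donor minus naive-donor, was 0.0029 and that of all tested genes 0.0016. Their median absolute difference was 0.043, beside 0.064 over all tested genes. Every 95% interval held 0, and the intervals reached at most to 1.20-fold lower (Klf4) and 1.18-fold higher (Cebpa). Differences inside these intervals cannot be told from 0 with 3 arrays a group.

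Gene positions below are those of RefSeq on GRCm38.p6. Among the early myeloid factors, Spi1 had the signals most alike in both groups. PU.1, an ETS-family protein, is required for macrophages, dendritic cells and granulocytes. Spi1 (probe set 10473809, gene at chr2:91082374-91115759) read 12.96, 12.90 and 12.98 in the UV-donor group, against 12.93, 12.90 and 13.004 in the naive-donor group. The lowest array of each group read 12.90. The means were 12.95 ± 0.04 in UV-donor and 12.94 ± 0.06 in naive-donor cells (SD, n = 3 each), which differ by 0.0029 with a 95% interval of -0.11 to 0.12 (adjusted p = 0.986 by limma). Its sign turned when single arrays were left out, with differences of -0.021 to 0.034.

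Cebpa encodes C/EBPalpha, which is needed for the step to granulocyte and monocyte progenitors. Its signals (probe set 10552140, gene at chr7:35119293-35121928) were 9.96, 10.11 and 10.29 in the UV-donor group, against 9.99, 10.08 and 10.14 in the naive-donor group. The lowest and the highest of the 6 arrays both belonged to the UV-donor group, so its range enclosed the naive-donor values. Means of 10.12 ± 0.17 in UV-donor and 10.07 ± 0.08 in naive-donor cells (SD, n = 3 each) differed by 0.050 with a 95% interval of -0.14 to 0.24 (adjusted p = 0.819 by limma). Without UV-donor replicate 3 the difference was -0.036.

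C/EBPbeta, the product of Cebpb, acts in emergency granulopoiesis and in macrophage activation. Cebpb (probe set 10478890, gene at chr2:167688915-167690432) read 10.71, 10.70 and 10.81 in UV-donor cells, against 10.75, 10.76 and 10.86 in naive-donor cells. UV-donor replicates 1 and 2 lay below every naive-donor array and the third lay among them. The difference was -0.048 (95% interval -0.17 to 0.077, limma adjusted p = 0.714), from means of 10.74 ± 0.06 in UV-donor and 10.79 ± 0.06 in naive-donor cells (SD, n = 3 each).

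**Figure D1:**
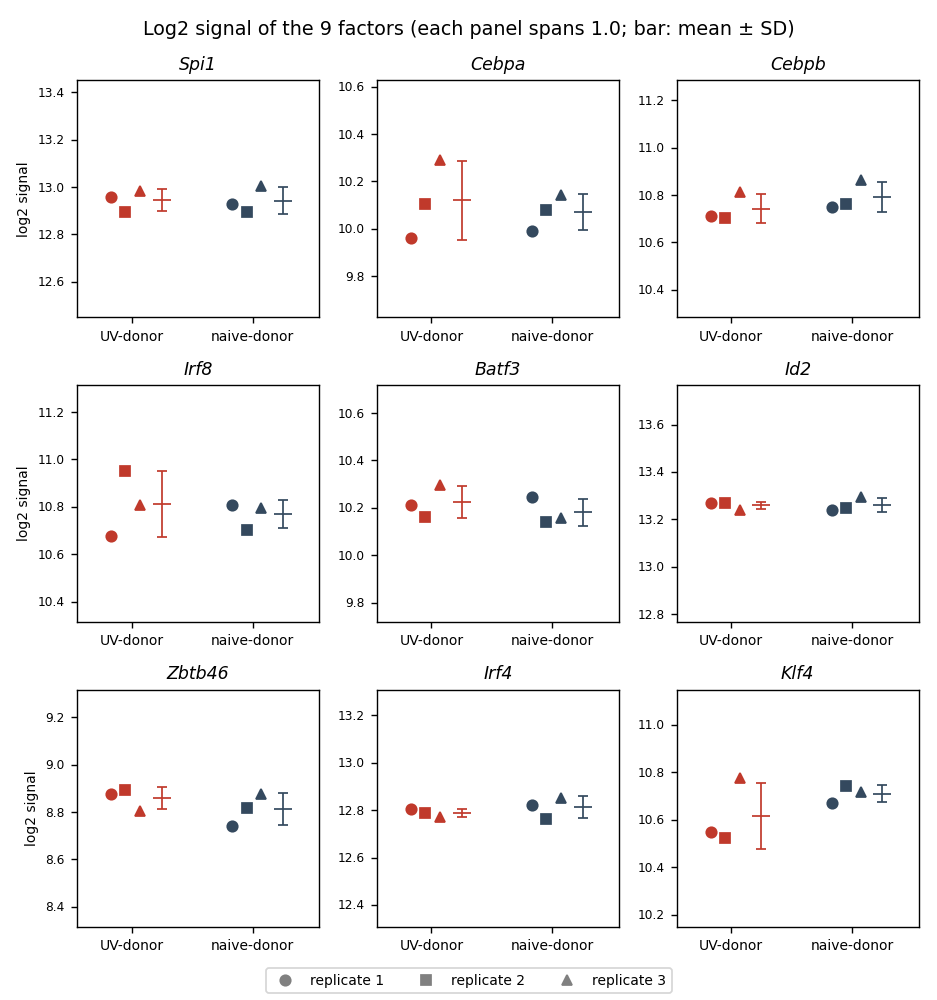
Log2 signal of each of the 9 factors on the 3 UV-donor arrays (red, left) and the 3 naive-donor arrays (dark, right), with the mean ± SD beside the points and marker shapes for replicate numbers. Every panel spans the same width on the log2 axis, and in all 9 panels the groups overlap, with the widest UV-donor scatter for Cebpa (SD 0.17), Klf4 (SD 0.14) and Irf8 (SD 0.14).

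The cDC1 factors and Zbtb46 differed by less than 0.05. Irf8, an interferon regulatory factor that pairs with PU.1 and BATF proteins on DNA and restrains neutrophil output, had signals (probe set 10576034, gene at chr8:120736358-120756694) of 10.68, 10.95 and 10.81 in the UV-donor group, against 10.81, 10.70 and 10.80 in the naive-donor group. Here too the lowest and highest arrays were UV-donor replicates 1 and 2. Irf8 averaged 10.81 ± 0.14 in UV-donor and 10.77 ± 0.06 in naive-donor cells (SD, n = 3 each), which differ by 0.043 with a 95% interval of -0.13 to 0.21 (adjusted p = 0.823 by limma). It was -0.028 without UV-donor replicate 2.

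Batf3, the AP-1 family partner that sustains Irf8 expression in mouse cDC1 cells, read 10.21, 10.16 and 10.30 (probe set 10352717, gene at chr1:191098414-191108943) in the UV-donor group. The naive-donor arrays read 10.24, 10.14 and 10.16, and 1 of them exceeded all but the highest UV-donor array. The difference was 0.043 (95% interval -0.084 to 0.17, limma adjusted p = 0.755), from means of 10.22 ± 0.07 in UV-donor and 10.18 ± 0.06 in naive-donor cells (SD, n = 3 each).

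Id2, which lacks a DNA-binding region and blocks E proteins such as the plasmacytoid factor Tcf4, had the narrowest spread of the 9. Its signals (probe set 10399691, gene at chr12:25093799-25096092) were 13.27, 13.27 and 13.24 in the UV-donor group, against 13.24, 13.25 and 13.29 in the naive-donor group. All 6 arrays lay within 0.054. The difference was -0.0018 (95% interval -0.10 to 0.0997, limma adjusted p = 0.99), from means of 13.26 ± 0.02 in UV-donor and 13.26 ± 0.03 in naive-donor cells (SD, n = 3 each). Its sign turned with array medians centred (0.033), with cyclic loess (0.0082) and without UV-donor or naive-donor replicate 3.

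Zbtb46, a zinc finger factor used to mark conventional dendritic cells and their committed precursors, had signals (probe set 10490682, gene at chr2:181371009-181493262) of 8.88, 8.89 and 8.80 in UV-donor cells, against 8.74, 8.82 and 8.88 in naive-donor cells. UV-donor replicate 2 was the highest of the 6 arrays, and the highest naive-donor array lay above UV-donor replicate 3, so the groups overlapped. Means of 8.86 ± 0.05 in UV-donor and 8.81 ± 0.07 in naive-donor cells (SD, n = 3 each) differed by 0.045 with a 95% interval of -0.078 to 0.17 (adjusted p = 0.731 by limma).

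The factors of the cDC2 and monocyte-derived side had lower UV-donor means without passing the test. Irf4, an interferon regulatory factor that in dendritic cells promotes antigen presentation to helper T cells, read 12.81, 12.79 and 12.77 (probe set 10404389, gene at chr13:30749233-30766981) in the UV-donor group. The naive-donor arrays read 12.82, 12.76 and 12.85, and they enclosed the UV-donor arrays. The difference was -0.026 (95% interval -0.13 to 0.081, limma adjusted p = 0.834), from means of 12.79 ± 0.02 in UV-donor and 12.81 ± 0.04 in naive-donor cells (SD, n = 3 each), and it turned to 0.009 when each array was centred on its median.

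Klf4, a zinc finger factor needed for monocytes and for the cDC2 cells that prime type 2 responses, had the largest difference of the set. Its signals (probe set 10513008, gene at chr4:55527137-55532475) were 10.55, 10.52 and 10.78 in the UV-donor group, against 10.67, 10.74 and 10.72 in the naive-donor group. UV-donor replicates 1 and 2 lay below all naive-donor arrays and UV-donor replicate 3 lay above them. Klf4 averaged 10.61 ± 0.14 in UV-donor and 10.71 ± 0.04 in naive-donor cells (SD, n = 3 each), a difference of -0.095 (SE 0.072, 95% interval -0.26 to 0.070, limma adjusted p = 0.563). An absolute difference no larger than the 0.095 of Klf4 over all 6 arrays was seen in 67.1% of all tested genes. Without UV-donor replicate 3 the difference was -0.175, with an unadjusted limma p of 0.0152 and an adjusted p of 0.27.

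Scatter differed from factor to factor. Ranges over the 6 arrays went from 0.054 for Id2 to 0.331 for Cebpa, with a median of 0.157 for the factors and 0.215 for all tested genes. The UV-donor SD exceeded the naive-donor SD in 4 of 9 factors, and was more than 2 times as large for Cebpa, Irf8 and Klf4. In the other factors the naive-donor SD was the larger, as for Irf4 (0.045 against 0.018 in the UV-donor group). A difference in scatter was not tested, and these SDs were not compared with those of all tested genes. Naive-donor replicate 3 was the highest of the 6 arrays for 4 factors and UV-donor replicate 3 for another 3. Among other genes, the profiles nearest to that of Klf4 over the 6 arrays, by root mean square distance after centring, were those of Nr5a1 (0.022), Krt27 (0.026) and Cdh15 (0.027), beside a root mean square of 0.096 for the profile of Klf4 itself. For Cebpb, whose own value was 0.055, they were Irs2 (0.013), Fbxo27 (0.018) and Slc35e4 (0.019).

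The factors also regulate one another, and their promoters were read for the core motifs of the set. RefSeq windows on GRCm38.p6 were matched for 8 of the 9 genes, and the 250 bases before each annotated start were searched on both strands for GAGGAA (PU.1), TTGCNNAA (C/EBP), the ETS and IRF composite element, the interferon response element, TGANTCA (AP-1) and CACCC (KLF). Matches of the PU.1 core, the composite and the interferon motif can overlap one another. The PU.1 core was found in 2 of the 8 genes, Irf4 and Batf3, and in 23.3% of all 32851 windows. The AP-1 motif was found in 1 gene, Zbtb46, whose RefSeq window lies inside the annotated gene and not at its outer end, and in 6.75% of windows. The KLF motif was found in 6 of 8, beside 52.0% of windows. The C/EBP, composite and interferon motifs were found in none of the 8, and in 9.56%, 2.30% and 2.98% of windows. The Irf4 and Batf3 windows are shown because they carry the PU.1 core, in capitals (GAGGAA, or TTCCTC where it lies on the opposite strand). They lie at chr13:30748983-30749232 on the + strand and at chr1:191098164-191098413 on the + strand, and both are written 5′ to 3′ along the gene.
Irf4: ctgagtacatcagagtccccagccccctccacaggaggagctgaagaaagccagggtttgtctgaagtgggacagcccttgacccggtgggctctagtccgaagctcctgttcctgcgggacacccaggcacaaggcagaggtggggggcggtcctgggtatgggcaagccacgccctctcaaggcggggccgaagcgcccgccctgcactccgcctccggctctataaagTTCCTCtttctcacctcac
Batf3: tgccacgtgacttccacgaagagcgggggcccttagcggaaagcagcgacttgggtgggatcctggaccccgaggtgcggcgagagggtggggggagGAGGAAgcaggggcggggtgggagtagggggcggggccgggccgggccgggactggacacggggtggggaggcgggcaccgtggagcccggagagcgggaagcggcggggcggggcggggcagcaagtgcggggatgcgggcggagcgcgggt
The match lies 19 bases before the Irf4 start on the opposite strand and 153 bases before the Batf3 start on the gene's own strand. These matches describe letters only, and neither gene was called.

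The wider circle of lineage regulators was described through 6 lists of 67 genes, of which 64 were tested. Limma called 0 of them, and an unadjusted p under 0.05 was reached by 14 of 64 (8 up, 6 down), beside 15.1% of all tested genes. The median difference was 0.034, beside 0.0016 over all tested genes.

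Bcl6 and Zeb1 came nearest to a call, and their arrays were separated. Bcl6, a transcriptional repressor best known in germinal centre B cells, read 9.06, 9.05 and 8.99 in the UV-donor group, against 8.75, 8.74 and 8.75 in the naive-donor group. The lowest UV-donor array stood above the highest naive-donor array. The difference was 0.29 (95% interval 0.18 to 0.39, limma adjusted p = 0.0627), with an adjusted p of 0.0409 to 0.365 over the other settings (lowest with array medians centred, highest with all probe sets tested together) and of 0.102 to 0.231 with single arrays left out. Zeb1, a zinc finger repressor that binds E-box sequences, read 9.79, 9.85 and 9.81 in the UV-donor group, against 9.59, 9.56 and 9.51 in the naive-donor group. Its difference was 0.27 (95% interval 0.16 to 0.38, limma adjusted p = 0.0859). Its relative Zeb2, which in mice represses Id2 in the plasmacytoid lineage, was named after its values were seen. It read 11.87, 12.00 and 11.89 in the UV-donor group, against 12.11, 12.06 and 12.05 in the naive-donor group, a difference of -0.15 (limma adjusted p = 0.236).

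In the list of ETS, RUNX and progenitor regulators 13 of 14 tested genes had higher UV-donor means, beside 7059 of 13956 overall. The median was 0.055, with 0 calls by limma and 4 of 14 at an unadjusted p under 0.05 (3 up, 1 down), beside 15.1% of all tested genes. Spib, the PU.1 relative of plasmacytoid and B cells, read 7.95, 7.91 and 8.08 in the UV-donor group, against 7.82, 7.60 and 7.60 in the naive-donor group (difference 0.31, limma adjusted p = 0.156). Myc, a driver of growth and division, differed by 0.27 (limma adjusted p = 0.157). Of the Id and E proteins, Tcf4, the plasmacytoid factor that Id2 opposes, differed by 0.28 (limma adjusted p = 0.233) and Id4 by -0.12 (limma adjusted p = 0.301). That list had 0 calls among 6 tested genes and a median of 0.031. Spib and Tcf4 are also in the list of plasmacytoid cell markers. Of its 7 tested genes 3 had higher and 4 lower UV-donor means, with 0 called by limma and a median of -0.035. Its member Cox6a2, named after its values were seen, differed by -0.70 (limma adjusted p = 0.181).

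The closest relatives of the factors gave no call either. In the C/EBP and KLF list 6 of 9 genes had lower UV-donor means. Beside 15.1% of all tested genes, 2 of the 9 had an unadjusted p under 0.05. These were Klf10, a gene induced by TGF-beta, at -0.23 (limma adjusted p = 0.273) and Klf3, a repressor of the KLF family, at -0.15 (limma adjusted p = 0.312). In the IRF list 4 of 6 tested genes had higher means, led by Irf1, which is induced by interferon gamma, at 0.21 (limma adjusted p = 0.32) and Irf5, which drives inflammatory cytokine genes, at 0.11 (limma adjusted p = 0.33). The difference of Irf1 was 0.105 without naive-donor replicate 2 and 0.094 with the mean of its probe sets. The BATF and AP-1 partners had a median of -0.0088, with Jund at 0.086 and Junb at 0.062 (limma adjusted p-values 0.557 and 0.614).

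**Figure D2:**
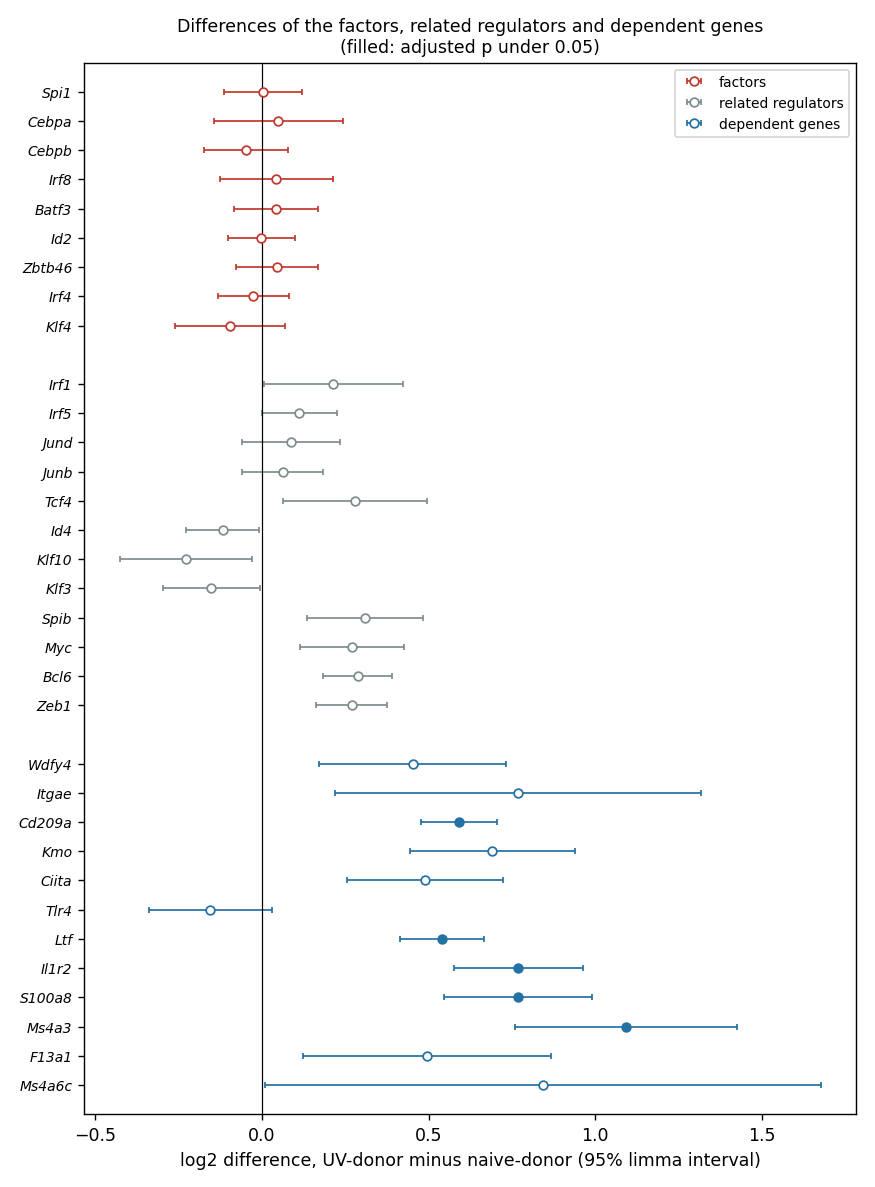
Log2 difference, UV-donor minus naive-donor, with its 95% limma interval (horizontal axis) for the 9 factors, the 2 genes of smallest p in each list of related regulators, and the genes named from the lists of dependent genes. Filled points have an adjusted p under 0.05. The factors lie between -0.095 and 0.050 with intervals that all hold 0, and the 5 filled points, from 0.54 for Ltf to 1.09 for Ms4a3, are all dependent genes.

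Genes listed here as dependent on the factors were described in the same way. Of 63 such genes in 5 lists, 55 were tested and 5 rose in the UV-donor group, against 24 of 13956 genes or 0.172% overall. None was called lower. At an unadjusted p under 0.05 limma gave 17 of the 55 higher and 2 lower, beside 9.6% and 5.49% of all tested genes. The median difference of the 55 was 0.012, beside 0.0016 over all tested genes. The lists were written with results of these data known, so these shares are descriptions. Dependence of the listed genes on the factors was not tested in these cells.

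Of the 5 called genes, 4 belong to the list of granulocyte genes assigned to C/EBP factors. It had a median difference of 0.33 over 15 tested genes. An unadjusted p under 0.05 was reached by 8 of the 15, none of them lower, beside 9.6% higher and 5.49% lower of all tested genes. Ltf, the secondary granule protein lactoferrin, read 8.11, 8.10 and 8.15 in the UV-donor group, against 7.63, 7.63 and 7.48 in the naive-donor group (difference 0.54, SE 0.055, limma adjusted p = 0.0199). The 2 groups were well apart. S100a8, a calcium-binding protein of neutrophils and monocytes, read 8.92, 9.32 and 9.17 in the UV-donor group, against 8.45, 8.30 and 8.35 in the naive-donor group (difference 0.77, limma adjusted p = 0.0365). Ms4a3, a membrane protein that marks progenitors of granulocytes and monocytes, read 7.73, 8.40 and 8.07 in UV-donor cells, against 6.91, 7.04 and 6.98 in naive-donor cells (difference 1.09, limma adjusted p = 0.0387). All 3 UV-donor arrays of each gene stood above its naive-donor arrays. Il1r2, the decoy interleukin-1 receptor, read 11.34, 11.58 and 11.35 in the UV-donor group, against 10.65, 10.78 and 10.53 in the naive-donor group (difference 0.77, limma adjusted p = 0.0199). These rises stood beside differences of 0.050 for Cebpa and -0.048 for Cebpb. Of the other C/EBP genes tested, Cebpe differed by 0.095, Cebpd by 0.094 and Cebpg by -0.11 (limma adjusted p-values 0.662, 0.69 and 0.457). Those were named after their values were seen.

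Primary granule genes of the same list were not called, and their signals were low. UV-donor and naive-donor means were 7.26 and 7.22 for Mpo, 7.11 and 7.14 for Elane, and 7.40 and 7.52 for Prtn3. Array medians over all probe sets were 7.16 to 7.23. The naive-donor mean was 7.02 for Camp and 6.97 for the called Ms4a3. Whether a change in transcript would show at signals this low was not tested, so these genes are not shown to be unchanged. The difference was 0.044 for Mpo, -0.035 for Elane and -0.12 for Prtn3 (limma adjusted p-values 0.763, 0.813 and 0.398), which together with the secondary granule gene Camp at -0.019 (0.899) were named after their values were seen. So were the uncalled Ngp (1.03), S100a9 (0.68), Mmp8 (0.45) and Mmp9 (0.33), higher without overlap (limma adjusted p-values 0.0551, 0.157, 0.157 and 0.104). In the list 8 of 15 tested genes were higher without overlap and 2 lower, beside 12.4% and 9.37% of all tested genes. The list shares 7 genes with the 12 neutrophil markers, or 43.8% of it and 58.3% of the markers. Of those 12 markers 3 were called higher (Ltf, S100a8 and Stfa2, the last by 0.89 with limma adjusted p = 0.0199), and the mean log2 signal of all 12 spanned 9.22 to 9.42 in the UV-donor group and 8.79 to 8.95 in the naive-donor group. At an unadjusted p under 0.05 limma gave 9 of the 12 higher and 0 lower, beside 9.6% and 5.49% of all tested genes. Markers of haematopoietic progenitors averaged 7.75 to 7.79 in the UV-donor group and 7.56 to 7.68 in the naive-donor group. Their median difference was only 0.049, with 6 higher and 2 lower UV-donor means. The largest was that of Cd34, named after its values were seen, at 0.76 (limma adjusted p = 0.12). Limma called 0 of the 8 progenitor markers tested, and 2 were higher at an unadjusted p under 0.05, beside 9.6% of all tested genes. Macrophage markers moved both ways, with 5 higher and 6 lower UV-donor means among 11 tested, and averaged 9.63 to 9.77 in the UV-donor group and 9.64 to 9.70 in the naive-donor group. The complement gene C1qb rose by 0.63 (limma adjusted p = 0.0199). Adgre1, a macrophage surface receptor, differed by 0.51, Cd5l by -0.996 and Lyve1 by -0.54 (limma adjusted p-values 0.0627, 0.0627 and 0.163). These 3 were named after their values were seen, and their groups did not overlap. Of the eosinophil, mast cell and basophil markers 3 were tested and 6 were dim. The 3 averaged 8.43 to 8.57 in the UV-donor group and 8.07 to 8.30 in the naive-donor group, with 0 called by limma. Among these markers Prg2 differed by 0.75 (limma adjusted p = 0.105). The dim Epx differed by 0.40 with no filter on dim genes (limma adjusted p = 0.0479). Both were named after their values were seen. The part of any of these cell types in the rises was not tested.

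The windows of Ltf and S100a8 are shown because they are the windows of called genes that hold the PU.1 core. They lie at chr9:111019042-111019291 on the + strand and at chr3:90668821-90669070 on the + strand of GRCm38.p6, 5′ to 3′ along the gene, with the PU.1 core (GAGGAA, here as TTCCTC) and the C/EBP motif (TTGCNNAA, here as its reverse complement) in capitals.
Ltf: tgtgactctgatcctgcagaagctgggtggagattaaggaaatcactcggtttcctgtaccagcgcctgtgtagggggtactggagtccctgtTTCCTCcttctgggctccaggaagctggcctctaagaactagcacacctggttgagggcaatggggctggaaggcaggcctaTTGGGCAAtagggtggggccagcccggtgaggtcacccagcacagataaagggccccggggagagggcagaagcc
S100a8: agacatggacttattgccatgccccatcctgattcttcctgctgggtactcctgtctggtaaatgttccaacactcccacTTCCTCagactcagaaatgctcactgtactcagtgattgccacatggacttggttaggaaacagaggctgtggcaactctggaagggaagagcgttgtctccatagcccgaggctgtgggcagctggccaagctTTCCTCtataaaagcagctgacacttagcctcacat
Of the 5 called genes, the C/EBP motif was found for 1 (Ltf, 75 bases before the start) and the PU.1 core for 2, beside 9.56% and 23.3% of all windows. The windows of Il1r2, Ms4a3 and Cd209a held neither motif. The KLF motif was found for 3 of the 5, Il1r2 and Ms4a3 among them, beside 52.0% of all windows.

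In the cDC2 and IL-4 list, assigned to Irf4 and Klf4, 1 of 14 tested genes was called and the median difference was -0.0063. An unadjusted p under 0.05 was reached by 4 of the 14 (3 up, 1 down), beside 15.1% of all tested genes. Cd209a, a lectin of monocyte-derived dendritic cells, read 10.60, 10.59 and 10.61 in the UV-donor group, against 10.07, 10.02 and 9.94 in the naive-donor group (difference 0.59, SE 0.049, limma adjusted p = 0.0199). The UV-donor arrays were nearly equal and all stood above the highest naive-donor array. Kmo, kynurenine monooxygenase, differed by 0.69 without passing (limma adjusted p = 0.0627). The other genes of the list named here were chosen after their values were seen. The cytokine gene Ltb differed by 0.29 and the chitinase-like gene Chil4 by -0.18 (limma adjusted p-values 0.157 and 0.303). Arginase, Arg1, differed by -0.076 with groups that did not overlap (limma adjusted p = 0.438). Smaller differences were those of the chemokines Ccl17 (0.0072) and Ccl22 (0.022), the lectin Mgl2 (-0.023) and the inhibitory ligand Pdcd1lg2 (-0.017), with limma adjusted p-values of 0.843 to 0.955.

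The cDC1 list had 0 calls among 10 tested genes, and its defining markers Xcr1 and Clec9a were dim. An unadjusted p under 0.05 was reached by 4 of the 10 (3 up, 1 down), beside 15.1% of all tested genes. Wdfy4, which is needed for cross-presentation, read 11.49, 11.05 and 11.14 in UV-donor cells, against 10.72, 10.95 and 10.64 in naive-donor cells (difference 0.45, limma adjusted p = 0.168). The integrin Itgae read 8.59, 7.93 and 7.86 in UV-donor cells, against 7.28, 7.82 and 6.98 in naive-donor cells (difference 0.77, limma adjusted p = 0.205). For both genes the UV-donor arrays stood above the naive-donor arrays, by a margin smaller than the spread within groups. Of the 10 tested genes 6 had higher and 4 lower UV-donor means. Cadm1, named after its values were seen, differed by -0.16 with groups that did not overlap (limma adjusted p = 0.249). With no filter on dim genes, Clec9a differed by -0.14 and Xcr1 by -0.088 (limma adjusted p-values 0.553 and 0.591). Irf8 and Batf3 themselves differed by 0.043 each.

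Lists tied to PU.1 and to monocytes had 0 calls by limma among 9 and 8 tested genes. At an unadjusted p under 0.05, 1 and 2 of them were higher, beside 9.6% of all tested genes. Ciita, in the PU.1 list, switches on MHC class II genes. It read 10.42, 10.07 and 10.01 in the UV-donor group, against 9.72, 9.60 and 9.72 in the naive-donor group (difference 0.49, limma adjusted p = 0.126). The endotoxin receptor Tlr4 differed by -0.15 (limma adjusted p = 0.396). Among monocyte genes, the clotting factor subunit F13a1 differed by 0.495 (limma adjusted p = 0.222) and Ms4a6c by 0.84, with overlapping groups (limma adjusted p = 0.325). Single arrays moved both. F13a1 differed by 0.30 when UV-donor replicate 2 was dropped, and Ms4a6c by 0.48 when naive-donor replicate 3 and by 0.51 when UV-donor replicate 1 was dropped.

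**Figure D3:**
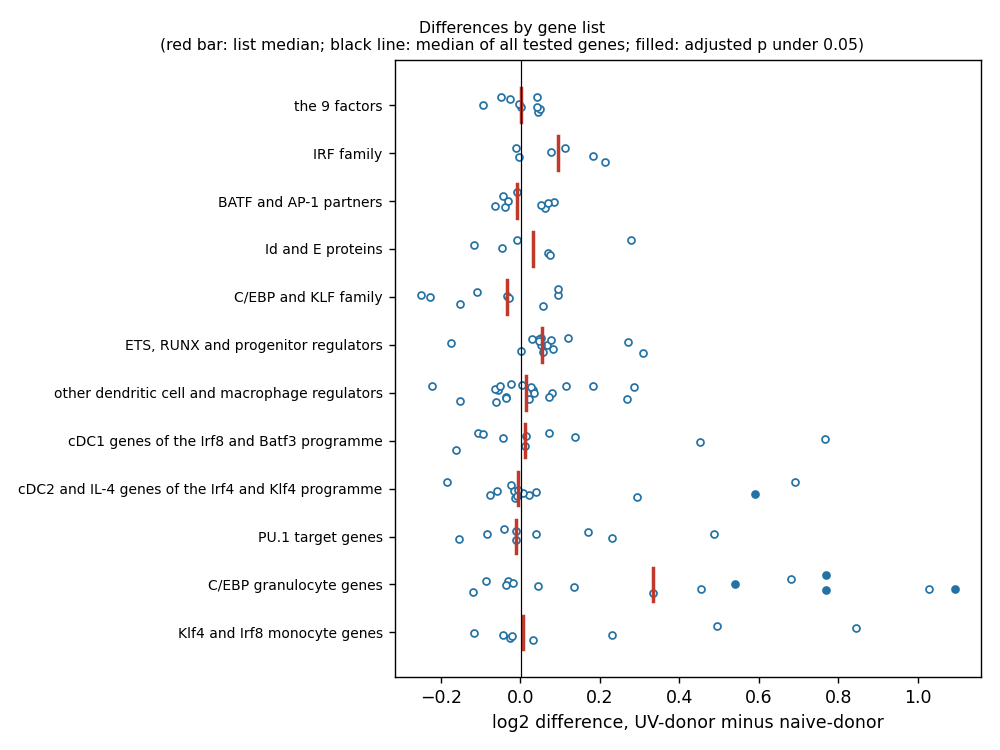
Log2 difference, UV-donor minus naive-donor (horizontal axis), of each tested gene in the set of 9 factors, the 6 lists of related regulators and the 5 lists of dependent genes (rows), with a red bar at each list's median and a black line at the median of all tested genes. Filled points have an adjusted p under 0.05. The 9 factors lie within 0.095 of 0, while the C/EBP granulocyte list spreads from -0.12 to 1.09 around a median of 0.33.

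Single arrays moved the calls of dependent genes but not those of the factors. The factors called numbered 0 with any 1 array left out. The dependent genes called numbered 0 without UV-donor replicate 2, UV-donor replicate 3 or naive-donor replicate 1, and 1 without naive-donor replicate 3, while at an unadjusted p under 0.05 limma gave 15 to 22 in these fits. Over all tested genes limma called only 1 to 3 in the same fits, beside 24 with all 6 arrays. The difference of Cd209a stayed between 0.56 and 0.62 and that of Ltf between 0.49 and 0.57.

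**Figure D4:**
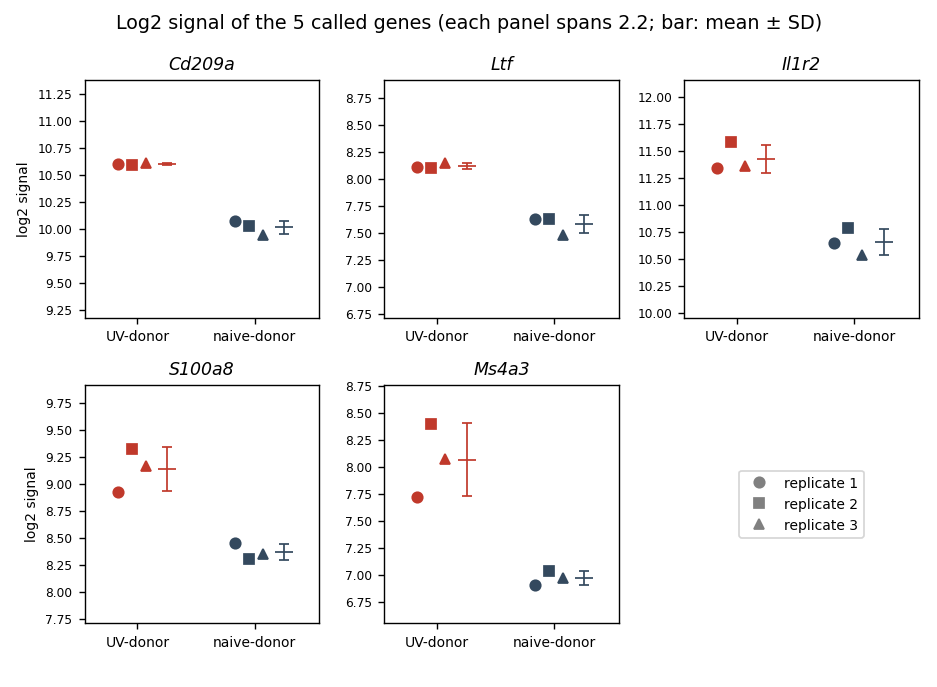
Log2 signal of the 5 called dependent genes on the 3 UV-donor arrays (red, left) and the 3 naive-donor arrays (dark, right), with the mean ± SD beside the points. In each panel the UV-donor arrays stand above the naive-donor arrays, and Ms4a3 has the widest UV-donor scatter (SD 0.34).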

How the data were processed

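The deposited table holds 1 log2 value per probe set for each of 6 arrays. RMA, oligo and limma are named in the submitters' processing notes, without versions. The summary level and any batch are not given in the sources used here. Values were used as deposited. The platform annotation gave 21789 of the 35556 probe sets a single symbol and 1621 more than 1; it did not list 12146. Symbols were matched by Entrez identifier to RefSeq genes of GRCm38.p6 (21698 matched, 0 changed). The probe set of highest mean stood for each gene, and dim genes (mean under the 30th percentile) were not tested.

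The test was lmFit and eBayes of limma 3.58.1 (R 4.3.3) on UV-donor minus naive-donor, two-sided, with p adjusted by Benjamini-Hochberg over 13956 genes, and was checked on simulated data. With 3 arrays a group, no exact permutation p can be under 0.1. The number of arrays limits the precision. The members and lists were chosen with earlier results of these data known. Genes named were the 9 factors, the called genes and the 2 of smallest p of each list, the called markers, and the 3 nearest profiles of the 2 factors of smallest p, with exceptions identified where they stand. Figures used matplotlib 3.10.9.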

Additional observations from a re-analysis of the deposited data

How the results depend on the processing

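With 11 other settings and 6 single arrays left out, 0 of the 9 factors were called by limma throughout, with 0 at an unadjusted p under 0.05 except 1 (Klf4) without UV-donor replicate 3. The differences of the factors themselves can move only with rescaled values, array weights or a left-out array. With array medians centred, which moved the median of all tested genes to 0.036, Irf4 differed by 0.009 and Id2 by 0.033, and Id2 differed by 0.0082 with cyclic loess. Leaving out single arrays gave -0.021 to 0.034 for Spi1, -0.012 to 0.015 for Id2, -0.028 to 0.11 for Irf8 and -0.036 to 0.13 for Cebpa.

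The count over all genes (24) was 43 with centred medians, 43 with array weights, 45 with an intensity trend and robust prior, 70 at an adjusted p under 0.10, 0 with all probe sets tested together (3509 unadjusted) and 1 to 32 with single arrays left out (1 without UV-donor replicate 2, UV-donor replicate 3 or naive-donor replicate 1, and 3 without naive-donor replicate 3). Related regulators called numbered 1 with centred medians (Bcl6) and 2 at an adjusted p under 0.10 (Bcl6 and Zeb1). Dependent genes called numbered 0 with all probe sets tested together (17 unadjusted) and 0 to 6 with single arrays left out. The cause was not tested. The labels do not say whether replicate numbers pair the arrays. Correlations of deviations were -0.13, -0.22 and 0.15 for numbers 1, 2 and 3, which with 3 arrays a group cannot decide it. Fitting the replicate block left 0 calls by limma over all genes, although 1286 up and 666 down had an unadjusted p under 0.05, and 0 among dependent genes (18 unadjusted). Other filters on dim genes, quantile normalization, cyclic loess and the mean of probe sets left every count of calls within 1.5 times. Genes lower at an unadjusted p under 0.05 (766) numbered 302 with centred medians, 336 with genes of below-median signal left out, 1232 with no filter on dim genes, 1708 with all probe sets tested together and 508 without naive-donor replicate 1. Uncalled genes also moved: without UV-donor replicate 1 the difference was -0.14 for Klf10, -0.098 for Klf3, -0.063 for Tlr4 and 0.037 for Jund, which was 0.15 without UV-donor replicate 2, and Junb differed by 0.020 without naive-donor replicate 1 and 0.10 without naive-donor replicate 3. Whether signals near the top of the array range, such as those of Id2 and Spi1, respond in proportion to transcript was not tested, and transcripts do not measure protein or activity of the factors.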
